A study of Mus musculus with 8 samples.

Results

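Foxp3 and 8 further genes that mark regulatory T cells (Tregs) were followed through 8 ATAC-seq libraries of mouse CD4 T cells. The genes were Foxp3, Ikzf2, Ikzf4, Il2ra, Nrp1, Entpd1, Nt5e, Lrrc32 and Gpr83. ATAC-seq uses a transposase that cuts accessible DNA, so the count over a region of the genome measures how open its chromatin is. Members were all regions that the deposited count table assigns to one of these genes by symbol. There were 74 such regions among 46624 distinct regions in the table, and 73 of them were among the 45709 kept for testing. The region left out by the low-count filter lay inside Entpd1, which encodes CD39, on chromosome 19 from 40692043 to 40692124. The male VAT Treg libraries had 26 and 10 counts there, each female VAT Treg and each male spleen Treg library 1, and the male VAT CD4 libraries 0 and 6.

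The 4 groups were Tregs of male visceral adipose tissue (VAT), Tregs of female VAT, Tregs of male spleen and CD4 T cells of male VAT, with 2 libraries each. All came from C57BL/6 mice with a red fluorescent protein (RFP) reporter of Foxp3. Tregs were sorted as RFP+ and the CD4 T cells as RFP-, and each library pooled cells of 3 mice. The labels give no age and do not say where in Foxp3 the reporter sits or whether the replicates used separate mice. The p-values therefore speak for these libraries, and they rest mostly on a spread shared across regions. Because the sort itself used Foxp3, a difference at Foxp3 between RFP+ and RFP- cells is tied to the way the groups were made.

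Tregs are CD4 T cells that restrain immune responses. Their identity rests on the transcription factor Foxp3, whose gene lies on the X chromosome and is held on by enhancers within and before the gene. Helios (Ikzf2) and Eos (Ikzf4) are zinc-finger factors of the Ikaros family that work with Foxp3. CD25, the alpha chain of the interleukin-2 receptor, is made from Il2ra and gives Tregs their high affinity for interleukin-2. Neuropilin-1 (Nrp1) and the orphan receptor Gpr83 are surface receptors that are abundant on Tregs. CD39 (Entpd1) and CD73 (Nt5e) are ectoenzymes that turn extracellular ATP into adenosine, and GARP (Lrrc32) holds latent TGF-beta on the Treg surface. Conventional T cells use some of these genes too, among them Il2ra, Nt5e and Nrp1.

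Between 5722254 and 15798875 counts per library were used. Male VAT Treg replicate 1 stood apart: short regions, those under 1000 bp, took 5.55% of its counts and 3.60 to 4.37% of those of the other libraries. Calls and counts of calls that rest on it are given with and without it. Of the 73 member regions, 48 were under 1000 bp wide, with a median of 122.5 bp, and 25 were wider, with a median of 3403 bp. Overlap with the body of the assigned gene was found for 42, and the farthest lay 300.51 kb outside its gene. The table assigned 13 to another gene as well. Regions of all 6 T cell marker genes (Cd3e, Cd3d, Cd3g, Cd4, Cd2 and Lck) were in the table. Of their 23 regions, 5, at 5 of the genes, were lower in male VAT Tregs than in male VAT CD4 cells and 0 higher (edgeR), against 2.51% of all regions lower and 5.18% higher. The count of 5 fell when any male VAT Treg, female VAT Treg or CD4 library was left out, most without male VAT Treg replicate 1 or CD4 replicate 2. The share of all regions lower fell in these fits too, except without male VAT Treg replicate 2. In the same comparison, markers of B cells had 1 of 9 regions called and those of CD8 T cells and NK cells 2 of 10, all of them lower, and no region was called for myeloid, fat or stromal markers (edgeR). No region was assigned to Ms4a1, Lyz2, Csf1r, Adgre1, Cd8a, Ncr1, Lep, Pdgfrb or Dcn. The B cell list summed to 77.0 and 112 CPM in male VAT Tregs, 109 and 110 CPM in female VAT Tregs, 113 and 114 CPM in male spleen Tregs, and 104 and 108 CPM in male VAT CD4 cells.

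Values are CPM (region counts relative to library size), after trimmed-mean-of-M (TMM) scaling. Every log2 fold change is from edgeR's quasi-likelihood test with its approximate standard error. The spread in that test was shared across regions, with 448 prior against 4 residual degrees of freedom. A region's own spread between replicates therefore weighs little in its p-value and standard error. Adjusted p-values of the main fit are Benjamini-Hochberg values over all 45709 regions, with 0.05 as the limit below which a region counted as called. Other fits, among them those with a library left out, used the same limit and were adjusted over the regions or genes each one tested. Coordinates are those of the table, on mm10 (GRCm38). In pooled cells, fewer cells with an open region and less opening per cell cannot be told apart.

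Foxp3 was open in Tregs inside the gene and at its end, and nearly closed there in CD4 cells, while at a region before the gene CD4 cells and male Tregs overlapped. On GRCm38.p6 the gene runs from 7579676 to 7595243 on the plus strand of chromosome X. It had 6 regions. The region inside the gene, from 7582208 to 7585993, lay 2.53 to 6.32 kb after the start. It held 18.8 and 14.0 CPM in male VAT Tregs, 27.1 and 32.9 CPM in female VAT Tregs, 13.6 and 13.6 CPM in male spleen Tregs, and 1.54 and 2.16 CPM in male VAT CD4 cells. All 6 Treg libraries stood above both CD4 libraries, and the female libraries were the highest. Against male VAT CD4 cells the log2 fold change was 3.12 ± 0.31 in male VAT Tregs (adjusted p = 3.31e-18, edgeR). It was 3.98 ± 0.30 in female VAT Tregs (adjusted p = 1.49e-30, edgeR) and 2.84 ± 0.31 in male spleen Tregs (adjusted p = 3.41e-14, edgeR). These 3 comparisons share the CD4 libraries, and the spleen comparison also differs in tissue and the female one in sex.

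The region over the end of Foxp3, from 7593924 to 7596251, also covers part of Ccdc22, a gene of endosomal sorting. It held 11.4 and 8.10 CPM in male VAT Tregs, 17.7 and 16.0 CPM in female VAT Tregs, 10.1 and 9.31 CPM in male spleen Tregs, and 1.16 and 0.865 CPM in male VAT CD4 cells. The CD4 libraries were again far below every Treg library. The log2 fold changes were 3.30 ± 0.38 in male VAT Tregs (adjusted p = 9.24e-14, edgeR), 4.07 ± 0.37 in female VAT Tregs (adjusted p = 8.53e-22) and 3.27 ± 0.38 in male spleen Tregs (adjusted p = 8.09e-13). Both regions kept these calls when any single library was left out.

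**Figure D1:**
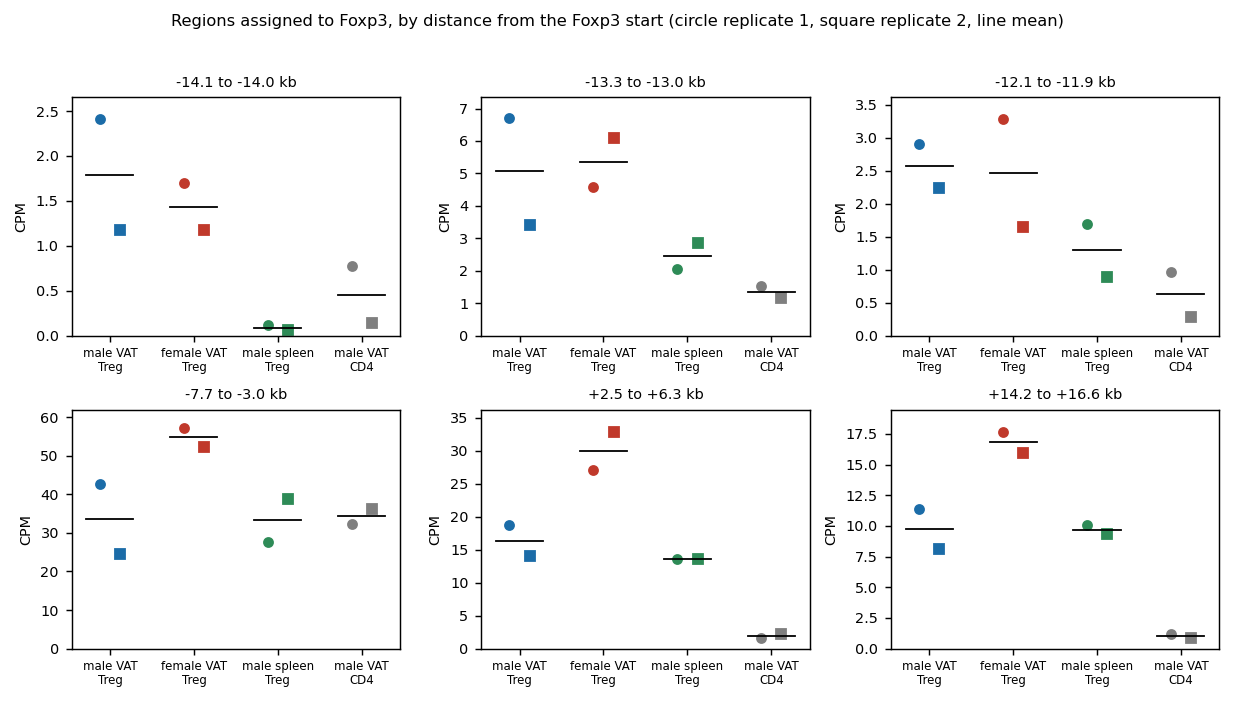
CPM of each library (vertical axis) at the 6 regions assigned to Foxp3, by group; panel titles give the distance from the Foxp3 start, circles are replicate 1, squares replicate 2 and lines the mean of 2. The CD4 libraries sit near the bottom at +2.5 to +6.3 kb and at +14.2 to +16.6 kb, and among the Treg libraries at -7.7 to -3.0 kb.

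The widest Foxp3 region, from 7572009 to 7576644, ends 3.03 kb before the gene. It overlaps the neighbour Ppp1r3f and Flicr, a long non-coding RNA gene known to restrain Foxp3. It held 42.7 and 24.6 CPM in male VAT Tregs, 57.3 and 52.3 CPM in female VAT Tregs, 27.6 and 38.9 CPM in male spleen Tregs, and 32.4 and 36.2 CPM in male VAT CD4 cells. Male VAT Tregs and CD4 cells overlapped, at a log2 fold change of -0.01 ± 0.19 (adjusted p = 0.986, edgeR), and spleen Tregs were at -0.03 ± 0.19 (adjusted p = 0.964). Female VAT Tregs were higher than CD4 cells by 0.67 ± 0.19 (adjusted p = 0.0169, edgeR). That call was lost when any of the 4 libraries compared was left out (adjusted p = 0.0574 to 0.261), and the sexes differ in this comparison, where X-linked regions had a median of 0.69.

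The 3 short regions lie farther before the gene, inside Ppp1r3f. At 7566345 to 7566666 there were 6.72 and 3.41 CPM in male VAT Tregs, 4.59 and 6.10 CPM in female VAT Tregs, 2.06 and 2.87 CPM in male spleen Tregs, and 1.54 and 1.15 CPM in male VAT CD4 cells. Male VAT Tregs exceeded CD4 cells there by a log2 fold change of 1.96 ± 0.46 (adjusted p = 0.000867, edgeR), and female VAT Tregs did too (2.00 ± 0.46, adjusted p = 0.00185). Without male VAT Treg replicate 1 the male value was 1.36 (adjusted p = 0.167), and without CD4 replicate 2 it was 1.74 (adjusted p = 0.0510). The female call did not hold without female replicate 2 (0.0753) or CD4 replicate 2 (0.0670). The region from 7567611 to 7567760 had 2.91 and 2.24 CPM in male VAT Tregs, 3.29 and 1.64 CPM in female VAT Tregs, 1.70 and 0.896 CPM in male spleen Tregs, and 0.963 and 0.288 CPM in male VAT CD4 cells. It was called in male VAT Tregs at 2.13 ± 0.67 (adjusted p = 0.0261, edgeR). It was not called without male VAT Treg replicate 1 (adjusted p = 0.213), CD4 replicate 2 (0.375) or female VAT Treg replicate 1 (0.0517).

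The outermost short region, from 7565611 to 7565716, set male VAT Tregs apart from spleen Tregs. It held 2.41 and 1.17 CPM in male VAT Tregs, 1.70 and 1.17 CPM in female VAT Tregs, 0.121 and 0.0597 CPM in male spleen Tregs, and 0.770 and 0.144 CPM in male VAT CD4 cells. Male VAT Tregs had 49 counts against 2 in male spleen Tregs, a ratio of 24.3 (exact 95% interval 6.39 to 207, for counting error only). The test gave an adjusted p of 0.000528 (edgeR), or 0.0876 without male VAT Treg replicate 1. The other 5 regions were not called between these groups, with log2 fold changes of 0.02 to 1.08.

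**Figure D2:**
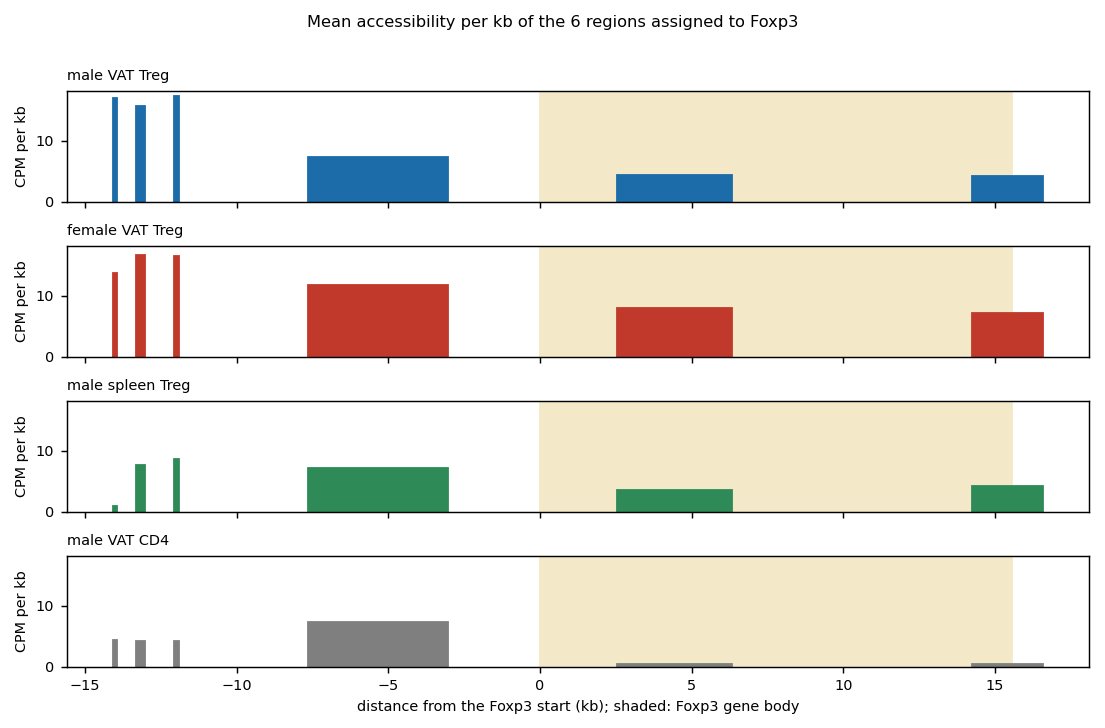
Mean CPM per kb of region (vertical axis, n = 2 libraries) along the Foxp3 locus in each group, against the distance from the Foxp3 start in kb; bars span each region, and the shaded band is the gene body. In the CD4 panel both regions that touch the gene are close to the baseline, while the bar that ends 3.03 kb before the gene is of about the same height as in male Tregs.

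Neither annotated start of Foxp3 had a region over it in the table. The RefSeq windows (GRCm38.p6, plus strand, 250 bases before to 50 after the start) are shown because they lie between the wide region before the gene and the Treg-open region within it. In the window chrX:7579426-7579725 a TATA box (TATAAA, capitals) stands with its first base 32 bases before the start. In the window chrX:7580233-7580532 a STAT-type motif (TTCNNNGAA, capitals) stands 139 bases before the start.
Foxp3 start at the gene's 5′ end: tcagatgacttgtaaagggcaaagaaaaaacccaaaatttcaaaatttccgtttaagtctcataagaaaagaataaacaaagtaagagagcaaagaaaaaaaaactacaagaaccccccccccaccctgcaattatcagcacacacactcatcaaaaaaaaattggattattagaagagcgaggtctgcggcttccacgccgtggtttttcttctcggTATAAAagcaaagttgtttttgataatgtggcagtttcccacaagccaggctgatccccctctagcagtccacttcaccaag
Foxp3 downstream start: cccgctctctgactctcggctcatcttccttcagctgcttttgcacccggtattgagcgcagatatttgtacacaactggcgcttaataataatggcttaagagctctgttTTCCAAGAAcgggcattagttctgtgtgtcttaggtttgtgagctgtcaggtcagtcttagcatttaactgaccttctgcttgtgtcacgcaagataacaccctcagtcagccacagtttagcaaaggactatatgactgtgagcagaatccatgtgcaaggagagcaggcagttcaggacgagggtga
On both strands, TATAAA is in 13.6% and TTCNNNGAA in 8.30% of all 32851 RefSeq windows of this length. Motifs of AP-1 (TGANTCA, in 7.81% of windows), RUNX (TGTGGT, 16.8%), forkhead factors (TGTTTAC, 3.65%), ETS factors (CCGGAAG, 8.86%) and CREB (TGACGTCA, 1.79%) were searched as well and are not in these windows. Windows were found for 6 of the 9 genes, and none was at hand for Ikzf2, Ikzf4 and Lrrc32.

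Between the sexes, male VAT Tregs had less signal than female ones at the 3 wide Foxp3 regions, near the shift of the X chromosome as a whole. The log2 fold change was -0.69 ± 0.18 before the gene (adjusted p = 0.0106, edgeR), -0.86 ± 0.20 inside it (adjusted p = 0.00286) and -0.77 ± 0.23 at its end (adjusted p = 0.0373). In each, both male libraries lay below both female libraries. The median over 991 X-linked regions was -0.59, with 82.7% of them below 0 and 22.2% called lower in males, against a median of 0.01 over 44691 autosomal regions. Relative to the X median the 3 regions stood at -0.10, -0.27 and -0.18, and 43.5%, 33.1% and 37.8% of X regions lay below them. With scaling on X regions alone they were -0.11 (adjusted p = 0.633, edgeR), -0.27 (0.280) and -0.18 (0.537), and none was called. The 3 short regions were at -0.04 to 0.35 and were not called. In the fit of all 8 libraries they stood 0.55 to 0.93 above the X median, with 81.7% to 93.3% of X regions below them. That median covers X regions of all widths. The distance rested in part on single libraries. Without male VAT Treg replicate 1, the region from 7565611 was at -0.29 and that from 7567611 at -0.15. With a library left out, the region from 7566345 went as low as -0.64, near the X median of the full fit. The region inside the gene was not called when female replicate 2 (adjusted p = 0.227) or male replicate 2 (0.0727) was left out. The region before the gene lost it without female replicate 1 (0.265), female replicate 2 (0.0935) or male replicate 2 (0.359), and the region at the end without female replicate 1 (0.414), female replicate 2 (0.189) or male replicate 2 (0.288).

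**Figure D3:**
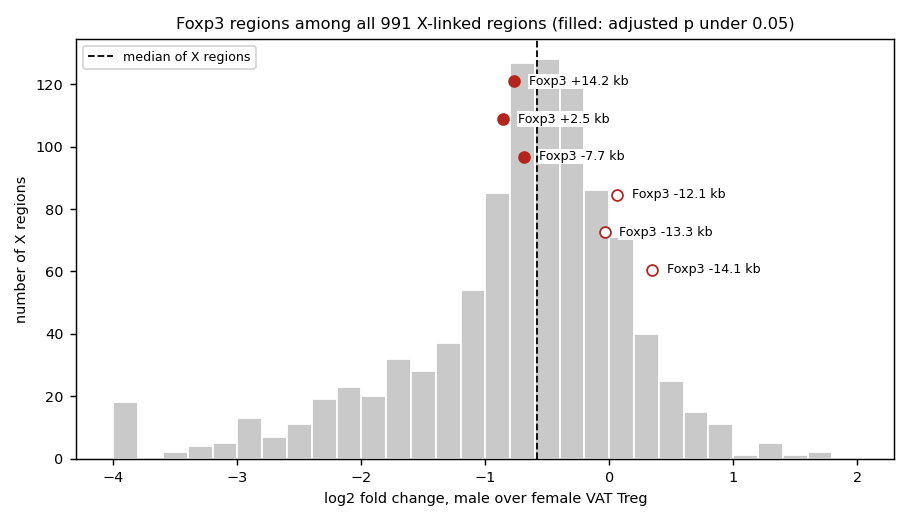
Histogram of log2 fold changes, male over female VAT Tregs, of all 991 X-linked regions (vertical axis, number of regions; values beyond the axis are counted in the outermost bars), with the 6 Foxp3 regions as dots at arbitrary height, filled where called. The 3 filled dots lie just left of the dashed X median of -0.59, and the 3 open dots lie near 0.

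Summed over its 6 regions, Foxp3 had 6.12 ± 1.96 CPM per kb in male VAT Tregs, 9.79 ± 0.0959 in female VAT Tregs, 5.33 ± 0.653 in male spleen Tregs and 3.50 ± 0.156 in male VAT CD4 cells (SD, n = 2 each). Female VAT Tregs were highest and CD4 cells lowest, and male VAT and male spleen Tregs, neighbours in between, differed by less than the SD of the male VAT libraries. In a fit of counts summed per gene over 19584 genes, Foxp3 was higher in male VAT Tregs than in CD4 cells (log2 fold change 0.82 ± 0.16, adjusted p = 0.00445, edgeR), a call made for 3.69% of genes in either direction. It was at 0.56 without male VAT Treg replicate 1 (adjusted p = 0.0156), and it was not called without CD4 replicate 1 (0.0520) or 2 (0.0732). Female VAT Tregs were at 1.42 ± 0.16 over CD4 cells (adjusted p = 6.18e-05) and spleen Tregs at 0.54 ± 0.16 (adjusted p = 0.104). The spleen value was called without either male VAT Treg library (0.00362 and 0.00338). Male VAT Tregs were at -0.60 ± 0.15 against female VAT Tregs (adjusted p = 0.0271), where 5.69% of genes were called, and this was lost without either female library (0.238 and 0.174). The sexes differ in both comparisons with female VAT Tregs. X-linked regions had a median of -0.59 in male over female VAT Tregs and of 0.69 in female VAT Tregs over CD4 cells. In the fit of summed counts the only other member called in any of the 5 comparisons was Lrrc32.

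Over all 9 genes, 18 of 73 member regions (24.7%) were higher in male VAT Tregs than in male VAT CD4 cells and 0 were lower (edgeR), against 5.18% of all regions higher and 2.51% lower. Before adjustment, 28 were higher and 4 lower at p under 0.05. No share of all regions was taken at that limit, so this and the unadjusted counts below lack a background. DESeq2 called 8 higher and 0 lower, where 2.74% of all regions were higher and 1.33% lower, and limma-voom 10 and 0, where these shares were 3.29% and 2.25%. The 18 belonged to 7 genes, and 14 of the 67 regions outside Foxp3 were among them. Width moved with the calls: 15 of 48 short member regions were higher, against 10.3% of all short regions, and 3 of 25 wide ones, against 2.35% of all wide regions. These were 5 of 48 without male VAT Treg replicate 1, against 3.27%, and 2 of 25, against 0.998%. Without CD4 replicate 1 they were 8 of 49 short regions, against 5.19%, and 2 of 25 wide ones, against 0.981%, and without CD4 replicate 2 they were 7 of 49, against 5.81%, and 3 of 25, against 1.91%. The median log2 fold change was 0.33 over the members and -0.02 over all regions. Female VAT Tregs had 10 of 73 higher and 0 lower than CD4 cells (edgeR), against backgrounds of 2.29% higher and 1.54% lower, with 17 and 2 before adjustment, and DESeq2 and limma-voom each gave 7 and 0, against 0.955% and 0.991% of all regions higher. Male spleen Tregs had 6 higher and 0 lower (edgeR), against 1.89% and 2.07%, with 13 and 1 before adjustment, and DESeq2 and limma-voom each gave 3 and 0, against 0.624% and 0.766% of all regions higher.

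Leaving out male VAT Treg replicate 1 lowered the male VAT count to 7 of 73, while 1.83% of all regions were then higher. It was 10 without CD4 replicate 1, against 2.53% of all regions, and 10 without CD4 replicate 2, against 3.35%. The female VAT count was 5 without female replicate 1, against 0.894%, and 6 without female replicate 2, against 0.854%. The spleen count was 3 without CD4 replicate 1, against 0.510%, and 3 without spleen replicate 2, against 0.826%. The share over all regions fell in each of these fits as well. The calls kept without any single library, and under all 10 other settings, were 5. They were the region inside Foxp3, the one at its end, Ikzf2 69533046 and 69599481, and Ikzf4 128642886. In 17 of 73 member regions (23.3%) all 6 Treg libraries lay above both CD4 libraries, against 7.56% of all regions, and in 3 (4.11%) all 6 lay below, against 7.47%.

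**Figure D4:**
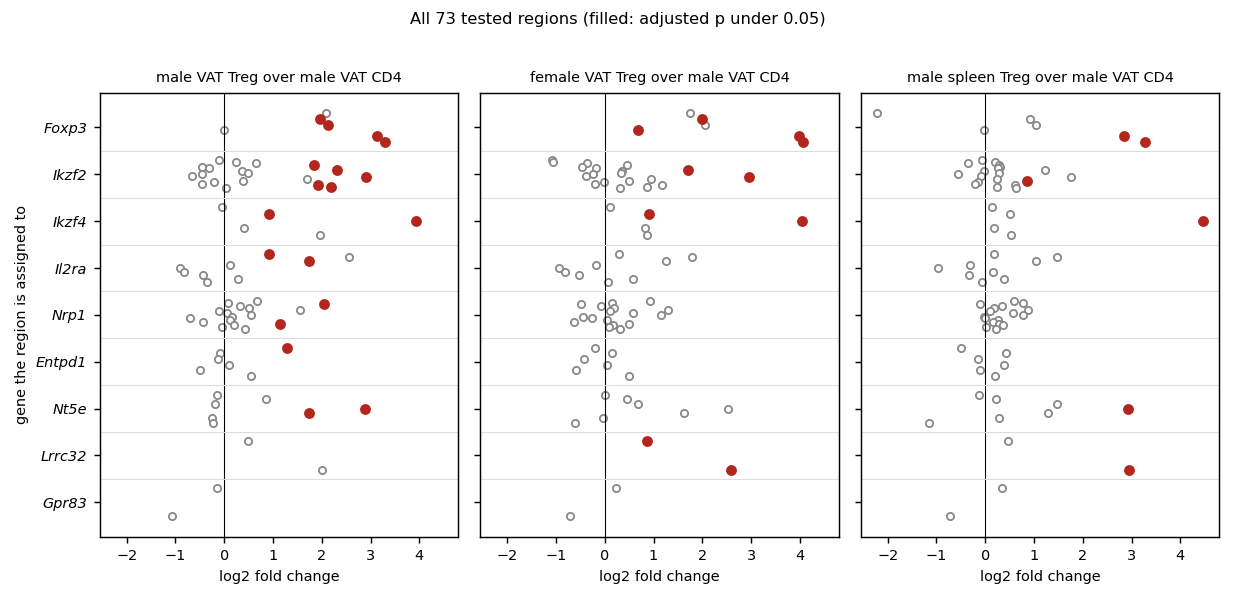
Log2 fold change of each of the 73 member regions (dots, horizontal axis) by assigned gene, for male VAT, female VAT and male spleen Tregs over the same 2 male VAT CD4 libraries; filled dots were called at an adjusted p under 0.05. All filled dots lie right of 0 in the 3 panels, 18, 10 and 6 in number.

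Regions at the genes of Eos and Helios rose in Tregs as well. Ikzf4 lies on chromosome 10 from 128630839 to 128669671 and had 5 regions, 2 of them higher in male VAT Tregs than in CD4 cells. The region of 122 bp inside the gene, from 128642886 to 128643008, was almost without counts in CD4 cells. It held 2.22 and 3.31 CPM in male VAT Tregs, 3.09 and 2.70 CPM in female VAT Tregs, 4.24 and 3.64 CPM in male spleen Tregs, and 0.193 and 0.144 CPM in male VAT CD4 cells. The 6 Treg libraries all exceeded the CD4 libraries, and spleen Tregs were highest. Summed counts were 66 in male VAT Tregs, 54 in female VAT Tregs and 96 in male spleen Tregs, against 2 in CD4 cells. The ratios were 15.9 (exact 95% interval 4.23 to 134), 17.7 (4.66 to 149) and 23.3 (6.27 to 195). The adjusted p was 5.70e-05 for male VAT, 8.83e-05 for female VAT and 2.16e-06 for spleen (edgeR). The wide Ikzf4 region from 128635569 to 128638844 held 21.6 and 16.5 CPM in male VAT Tregs, 18.7 and 19.5 CPM in female VAT Tregs, 14.4 and 14.3 CPM in male spleen Tregs, and 6.74 and 13.1 CPM in male VAT CD4 cells. Over CD4 cells it was up by 0.92 ± 0.23 in male VAT Tregs (adjusted p = 0.00248, edgeR) and by 0.91 ± 0.23 in female VAT Tregs (0.00710). Without CD4 replicate 1 these were 0.55 (adjusted p = 0.345) and 0.54 (0.547), and without male VAT Treg replicate 1 the male value was 0.70 (0.130). The female call was also lost without female replicate 1 (0.0687) or 2 (0.0999). Both Ikzf4 regions are assigned to Rps26, a ribosomal protein gene, as well.

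Ikzf2, on chromosome 1 from 69531207 to 69687351, had the most regions, 19, of which 5 were higher in male VAT Tregs than in CD4 cells. The region from 69533046 to 69533353, inside the gene, held 9.25 and 6.40 CPM in male VAT Tregs, 5.29 and 5.05 CPM in female VAT Tregs, 3.52 and 3.88 CPM in male spleen Tregs, and 1.93 and 1.30 CPM in male VAT CD4 cells. The groups ran in that order without overlap. Over CD4 cells it was 2.32 ± 0.40 in male VAT Tregs (adjusted p = 1.22e-06, edgeR) and 1.71 ± 0.42 in female VAT Tregs (0.00397). The female call did not hold without female replicate 1 (adjusted p = 0.0600) or CD4 replicate 2 (0.121). Spleen Tregs were at 1.23 ± 0.43 and were not called (0.0780).

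A further short region within Ikzf2, from 69599481 to 69599672, held 5.45 and 3.20 CPM in male VAT Tregs, 4.59 and 4.46 CPM in female VAT Tregs, 1.94 and 1.97 CPM in male spleen Tregs, and 0.385 and 0.721 CPM in male VAT CD4 cells. The log2 fold change over CD4 cells was 2.91 ± 0.56 in male VAT Tregs (adjusted p = 2.73e-05, edgeR), 2.95 ± 0.57 in female VAT Tregs (6.78e-05) and 1.75 ± 0.62 in spleen Tregs (0.0887). The 2 VAT Treg groups overlapped (male over female, -0.04 ± 0.38, adjusted p = 0.986), and the CD4 libraries were lowest.

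Just outside the gene, 5.114 kb beyond its higher coordinate, the region from 69692465 to 69692784 was higher in male VAT Tregs than in every other group. It held 8.68 and 4.69 CPM in male VAT Tregs, 2.69 and 2.70 CPM in female VAT Tregs, 1.58 and 1.85 CPM in male spleen Tregs, and 1.16 and 1.73 CPM in male VAT CD4 cells. The log2 fold change of male VAT Tregs was 2.20 ± 0.45 over CD4 cells (adjusted p = 8.06e-05, edgeR), 1.96 ± 0.39 over spleen Tregs (5.78e-05) and 1.33 ± 0.38 over female VAT Tregs (0.0227). Male VAT Treg replicate 1 gave the highest value, and without it the adjusted p-values were 0.0718, 0.0839 and 0.484. The call between the sexes was also lost without female replicate 1 (0.274) or 2 (0.252). Its neighbour from 69692016 to 69692221 and the region from 69461260 to 69461475 were higher than CD4 cells by 1.93 ± 0.48 (adjusted p = 0.00223) and 1.83 ± 0.54 (0.0142). Neither was called without male VAT Treg replicate 1 (0.520 and 0.279) or CD4 replicate 1 (0.0706 and 0.215). In spleen Tregs the region from 69651594 to 69655321 was 0.85 ± 0.25 above CD4 cells (adjusted p = 0.0262, edgeR), a call lost when any of the 4 libraries compared was left out (0.114 to 0.177). The remaining 14 Ikzf2 regions were not called in male VAT Tregs against CD4 cells, at -0.67 to 1.70. The widest, from 69677840 to 69688653, held 48.4 and 41.1 CPM in male VAT Tregs and 48.0 and 55.4 CPM in male VAT CD4 cells.

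**Figure D5:**
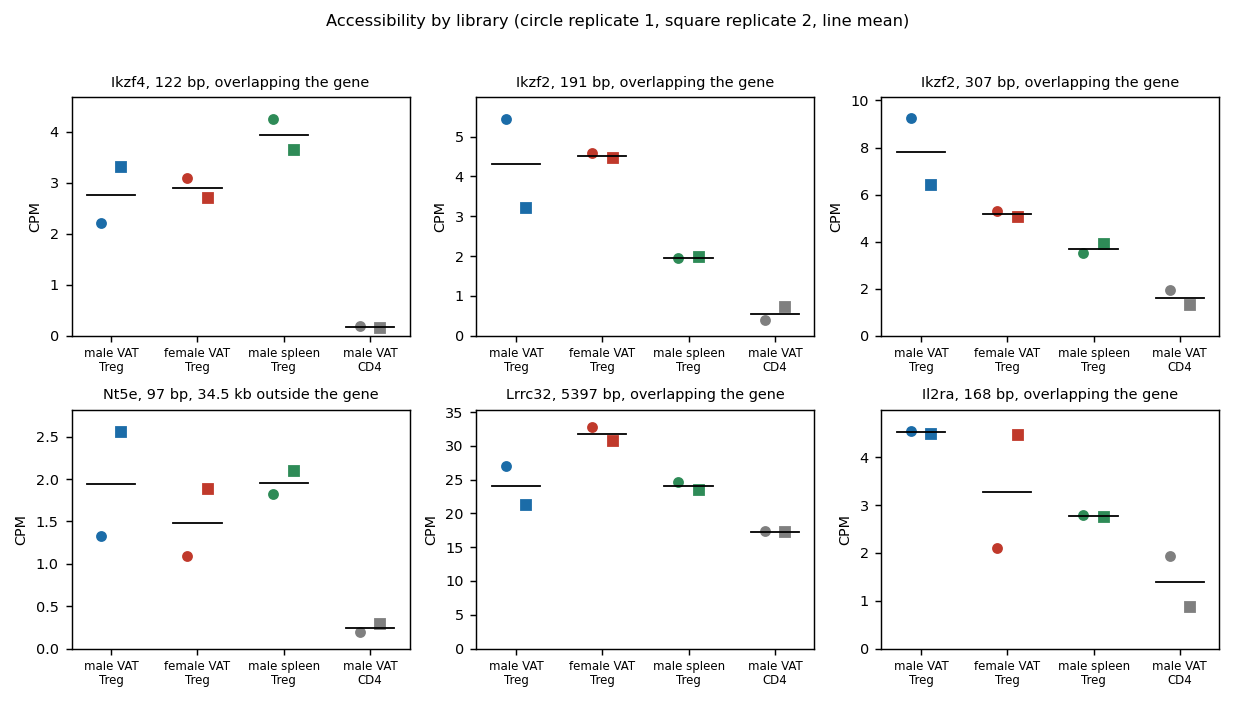
CPM of each library (vertical axis) by group at 6 regions of Ikzf4, Ikzf2, Nt5e, Lrrc32 and Il2ra; circles are replicate 1, squares replicate 2 and lines the mean of 2. Shown are the regions of each gene with the smallest adjusted p against CD4 cells, 2 for Ikzf2. The test was that of female VAT Tregs for Lrrc32 and of male VAT Tregs for the others. Because of this choice, the low CD4 values are not a separate result. The CD4 libraries are the lowest in all 6 panels, closest to 0 at the Ikzf4 region, with 0.193 and 0.144 CPM.

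Il2ra, the CD25 gene, was called at 2 short regions near its start. It lies on chromosome 2 from 11642792 to 11693194 on the plus strand and had 9 regions, all overlapping it. The 2 were higher in male VAT Tregs than in CD4 cells. The region from 11645371 to 11645539 held 4.56 and 4.48 CPM in male VAT Tregs, 2.09 and 4.46 CPM in female VAT Tregs, 2.79 and 2.75 CPM in male spleen Tregs, and 1.93 and 0.865 CPM in male VAT CD4 cells. The male VAT Treg value was 1.75 ± 0.48 over CD4 cells (adjusted p = 0.00736, edgeR), or 1.23 (0.251) without CD4 replicate 2. The region over the promoter, from 11642550 to 11642921, held 13.0 and 8.85 CPM in male VAT Tregs, 6.28 and 8.10 CPM in female VAT Tregs, 7.64 and 5.85 CPM in male spleen Tregs, and 6.16 and 5.63 CPM in male VAT CD4 cells. It was 0.91 ± 0.28 higher in male VAT Tregs (adjusted p = 0.0220, edgeR), which was lost without male VAT Treg replicate 1 (0.410), CD4 replicate 1 (0.0866) or CD4 replicate 2 (0.180). This region covers 292 of the 300 bases of the RefSeq promoter window chr2:11642542-11642841 (GRCm38.p6, plus strand), shown here as the accessible promoter of CD25. None of the 7 motifs is in it, so no base is in capitals.
Il2ra promoter: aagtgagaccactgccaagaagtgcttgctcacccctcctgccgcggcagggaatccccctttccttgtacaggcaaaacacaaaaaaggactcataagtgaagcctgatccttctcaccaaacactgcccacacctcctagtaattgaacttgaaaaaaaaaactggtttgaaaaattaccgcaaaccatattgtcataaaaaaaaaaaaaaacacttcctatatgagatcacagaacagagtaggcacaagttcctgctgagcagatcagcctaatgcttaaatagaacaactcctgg
The widest Il2ra region, from 11650053 to 11657050, held 44.6 and 31.6 CPM in male VAT Tregs and 29.5 and 40.5 CPM in male VAT CD4 cells, with overlap. The 7 regions not called ranged from -0.91 to 2.55. From 11657677 to 11657938 male VAT Tregs were lower than spleen Tregs, with 4.12 and 2.56 CPM against 6.18 and 7.22 CPM (log2 fold change -0.98 ± 0.32, adjusted p = 0.0368, edgeR). It was no longer called without female replicate 1 (0.0507) or 2 (0.0546), male VAT Treg replicate 2 (0.238), or spleen replicate 1 (0.0858) or 2 (0.291), and 6 of 10 other settings lost it too.

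Nrp1, on chromosome 8 from 128358591 to 128505476, had 17 regions, 2 of them higher in male VAT Tregs than in CD4 cells. The region from 128171168 to 128171387, 187.2 kb before the gene, held 5.89 and 2.99 CPM in male VAT Tregs, 0.399 and 1.17 CPM in female VAT Tregs, 0.970 and 1.02 CPM in male spleen Tregs, and 1.35 and 0.865 CPM in male VAT CD4 cells. Both male VAT Treg libraries lay above all others. They were higher by 2.05 ± 0.55 than CD4 cells (adjusted p = 0.00618, edgeR), by 2.17 ± 0.50 than spleen Tregs (0.000922) and by 2.55 ± 0.54 than female VAT Tregs (0.000520). Without male VAT Treg replicate 1 the 3 adjusted p-values were 0.417, 0.252 and 0.209. The comparison with CD4 cells gave 0.148 without CD4 replicate 2, and that with females 0.180 without female replicate 1. The region from 128506007 to 128506246 was 1.15 ± 0.38 higher than in CD4 cells (adjusted p = 0.0346, edgeR), lost without male VAT Treg replicate 1 (0.345), CD4 replicate 1 (0.300) or CD4 replicate 2 (0.0727). The other 15 regions were at -0.70 to 1.55. Gpr83, on chromosome 9 from 14859880 to 14870789, had 2 regions and no call in any comparison. The one over its start, from 14858471 to 14861874, held 7.03 and 9.70 CPM in male VAT Tregs, 11.8 and 9.74 CPM in female VAT Tregs, 11.3 and 11.8 CPM in male spleen Tregs, and 7.51 and 10.5 CPM in male VAT CD4 cells. The short one, from 14867197 to 14867274, held 1.27 to 2.51 CPM in the 6 Treg libraries and 3.27 and 3.32 CPM in male VAT CD4 cells, at -1.08 ± 0.51 in male VAT Tregs (adjusted p = 0.223, edgeR).

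Nt5e, which encodes CD73, on chromosome 9 from 88327609 to 88372089, had 7 regions, 2 of them higher in male VAT Tregs than in CD4 cells, both before the gene. The region of 97 bp from 88292962 to 88293059 held 1.33 and 2.56 CPM in male VAT Tregs, 1.10 and 1.88 CPM in female VAT Tregs, 1.82 and 2.09 CPM in male spleen Tregs, and 0.193 and 0.288 CPM in male VAT CD4 cells. Summed counts were 45 in male VAT Tregs and 50 in male spleen Tregs, against 3 in CD4 cells, with ratios of 7.23 (exact 95% interval 2.32 to 36.4) and 8.08 (2.61 to 40.5). The adjusted p-values were 0.0166 and 0.0225 (edgeR), and female VAT Tregs, with 27 counts, were not called (0.0962). The male VAT call did not hold without CD4 replicate 1 (0.167), CD4 replicate 2 (0.130) or male VAT Treg replicate 2 (0.147). The spleen call was lost without CD4 replicate 1 (0.238), CD4 replicate 2 (0.132) or spleen replicate 2 (0.121). The region from 88309273 to 88309422 was 1.74 ± 0.52 higher in male VAT Tregs (adjusted p = 0.0172, edgeR), lost without CD4 replicate 1 (0.374) or male VAT Treg replicate 1 (0.116). Over the Nt5e promoter, from 88324904 to 88333665, there were 34.7 and 35.6 CPM in male VAT Tregs, 43.3 and 38.6 CPM in female VAT Tregs, 50.2 and 51.9 CPM in male spleen Tregs, and 35.8 and 47.9 CPM in male VAT CD4 cells. Male VAT Tregs were lower there than spleen Tregs, by -0.54 ± 0.18 (adjusted p = 0.0411, edgeR). It was no longer called without male VAT Treg replicate 1 (0.101), either spleen library (0.180 and 0.245) or either female library (0.0836 and 0.0768), and 6 of 10 other settings lost it too.

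Entpd1, on chromosome 19 from 40612366 to 40741602, was called at 1 of 6 regions, and that call rests on 1 library. From 40639947 to 40640312 there were 9.06 and 2.35 CPM in male VAT Tregs, 2.19 and 2.00 CPM in female VAT Tregs, 1.70 and 1.73 CPM in male spleen Tregs, and 3.08 and 1.88 CPM in male VAT CD4 cells. Replicate 2 of the male VAT Tregs lay between the CD4 libraries. The log2 fold change of male VAT Tregs was 1.28 ± 0.42 over CD4 cells (adjusted p = 0.0382, edgeR), 1.78 ± 0.40 over spleen Tregs (0.000692) and 1.49 ± 0.40 over female VAT Tregs (0.0138). Without male VAT Treg replicate 1 these were -0.050 (0.986), 0.45 (0.728) and 0.16 (0.943). The comparison with CD4 cells was also lost without CD4 replicate 1 (0.0539) or 2 (0.364), and that with females without female replicate 1 (0.185) or 2 (0.229). The other 5 regions were at -0.50 to 0.54 against CD4 cells.

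Lrrc32, the GARP gene, was called in female VAT and in spleen Tregs. It lies on chromosome 7 from 98489305 to 98501831 and had 2 regions, neither called in male VAT Tregs. The wide region at the gene, from 98487747 to 98493144, held 27.0 and 21.2 CPM in male VAT Tregs, 32.8 and 30.7 CPM in female VAT Tregs, 24.6 and 23.5 CPM in male spleen Tregs, and 17.3 and 17.3 CPM in male VAT CD4 cells. All 6 Treg libraries exceeded the CD4 libraries. The log2 fold change over CD4 cells was 0.49 ± 0.21 in male VAT Tregs (adjusted p = 0.157, edgeR), 0.88 ± 0.21 in female VAT Tregs (0.00239) and 0.47 ± 0.21 in spleen Tregs (0.220). Between male and female VAT Tregs it was -0.39 ± 0.19 (0.340), so the 2 groups were not shown to differ. Without female replicate 1 the female value was 0.82 (0.0878). Summed per gene, female VAT Tregs were 0.88 ± 0.16 over CD4 cells (adjusted p = 0.00759, edgeR), and not called when any of the 4 libraries compared was left out (0.0512 to 0.153). The short region from 98513373 to 98513472 held 1.84 and 0.746 CPM in male VAT Tregs, 1.90 and 2.23 CPM in female VAT Tregs, 2.06 and 3.10 CPM in male spleen Tregs, and 0.385 and 0.288 CPM in male VAT CD4 cells. It was called in spleen Tregs (2.95 ± 0.75, adjusted p = 0.00646, edgeR) and in female VAT Tregs (2.59 ± 0.79, 0.0335), and the male VAT value was 2.00 ± 0.81 (0.125). The spleen call was lost without either CD4 library (0.0661 and 0.107) or spleen replicate 2 (0.124), and the female call when any of the 4 libraries compared was left out (0.125 to 0.214).

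In male VAT against male spleen Tregs, 7 of 73 member regions were higher and 2 lower, against 4.64% and 2.09% of all regions. All 7 were short: 7 of 48 short member regions (14.6%) were higher, against 10.2% of all short regions, and 0 of 25 wide ones, against 1.54% of all wide regions. The 2 lower calls, at Il2ra and Nt5e, are described above. No member was lower with DESeq2, limma on the deposited log2 CPM, library size alone, TMM on wide regions, the 2 groups fitted alone or the replicate block. The 7 were 4 of Ikzf2 and 1 each of Foxp3, Nrp1 and Entpd1. Besides the Ikzf2 region beyond the gene, those from 69461260 (1.55 ± 0.46, adjusted p = 0.0198, edgeR), 69533046 (1.09 ± 0.31, 0.0133) and 69692016 (1.31 ± 0.41, 0.0261) were higher. Without spleen replicate 1 the first was at 1.14 and the second at 1.02, and neither kept its call. Without spleen replicate 2 the second was at 1.17 and the third at 0.79, again not called. The regions from 69461260, 69533046 and 69692016 all rested on male VAT Treg replicate 1 as well. Without male VAT Treg replicate 1 these were not called (0.290, 0.247 and 0.795), and the counts over all members were 0 higher and 2 lower (edgeR), against 1.55% and 2.15% of all regions. Without male VAT Treg replicate 2 they were 13 and 1, against 5.38% and 1.52%. Without either CD4 library they were 11 and 2, against 4.61% to 4.63% of all regions higher and 2.17% to 2.20% lower, and without either spleen library 6 and 0, against 2.49% to 3.03% and 0.679% to 0.959%. In male against female VAT Tregs, 3 were higher and 3 lower, against 2.04% and 1.21% of all regions, and the 3 lower were those of Foxp3. All 3 higher ones were short, 3 of 48, against 4.68% of all short regions. The 3 lower ones are X-linked, and 22.2% of all X-linked regions were lower. Without male VAT Treg replicate 1 there were 0 higher and 3 lower, against 0.509% and 2.37% of all regions. There were 3 higher and 0 lower without male VAT Treg replicate 2, against 2.70% and 0.641%. Without either female library 1 region was called in all, where 0.586% and 0.673% of all regions were higher and 0.297% and 0.237% lower.

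Other genes of the same pathways had regions called in both directions, and most of the counts were lower when male VAT Treg replicate 1 was left out. The counts that follow are for male VAT Tregs against male VAT CD4 cells (edgeR) and stand against 5.18% of all regions higher and 2.51% lower. Without that library these shares are 1.83% and 1.73%. Among known regulators of Foxp3 transcription, 18 of 157 regions (11.5%) were higher and 12 lower, with a median log2 fold change of 0.06, and without the library 3 and 7. At Foxp1, a forkhead factor related to Foxp3, the region on chromosome 6 from 99486406 to 99486485 held 0.444 and 0 CPM in male VAT Tregs and 4.43 and 2.31 CPM in CD4 cells (-3.59 ± 0.81, adjusted p = 0.000495, or 0.00504 without the library). It was not called without male VAT Treg replicate 2 (0.0576) or CD4 replicate 1 (0.117). At Runx1, which binds DNA with the cofactor Cbfb, a region on chromosome 16 from 92793839 to 92794104 held 6.97 and 3.09 CPM in male VAT Tregs and 0.963 and 0.144 CPM in CD4 cells (3.32 ± 0.64, adjusted p = 2.98e-05, or 2.56 and not called without the library). Female VAT Tregs, with 0.299 and 0.469 CPM, and male spleen Tregs, with 0.606 and 0.717 CPM, lay between the CD4 libraries. Another Runx1 region, from 92641123 to 92641384, went the other way, with 1.21 to 3.59 CPM in the 6 Treg libraries and 7.13 and 8.65 CPM in CD4 cells. It was called lower in spleen Tregs (-2.27 ± 0.40, adjusted p = 9.34e-06, edgeR) and female VAT Tregs (-1.30 ± 0.38, 0.0270). Male VAT Tregs held 3.55 and 2.03 CPM there, and their test against CD4 cells is not given here. Neither call was refitted with a library left out. At Rel, an NF-kB subunit needed for Foxp3 induction, a region on chromosome 11 from 23823299 to 23823432 held 2.72 and 2.24 CPM in male VAT Tregs and 0.385 and 0.577 CPM in CD4 cells (2.32 ± 0.70, adjusted p = 0.0182, or 0.155 without the library). Leaving out either CD4 library ended the Rel call too (0.178 and 0.109). Over the regulators as a whole, both counts fell without either CD4 library, as did both shares over all regions. Without male VAT Treg replicate 2 more were higher and fewer lower, while both shares rose slightly. These shares are the same for the lists that follow.

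Interleukin-2 receptor partners had 4 of 39 regions (10.3%) higher and 4 lower, and without male VAT Treg replicate 1 there were 0 higher and 3 lower. Without CD4 replicate 2 they had 3 higher and 1 lower. Jak1, a kinase of the receptor, had the largest change of the list on chromosome 4 from 101175377 to 101175566, with 1.77 and 1.17 CPM in male VAT Tregs and 9.05 and 9.23 CPM in CD4 cells (-2.58 ± 0.41, adjusted p = 1.29e-07, or 2.10e-05 without male VAT Treg replicate 1). At Il2, the cytokine itself, a region on chromosome 3 from 37152365 to 37152560 held 2.03 and 2.45 CPM in male VAT Tregs and 6.16 and 6.78 CPM in CD4 cells (-1.55 ± 0.40, adjusted p = 0.00317). The adjusted p was 0.0636 without male VAT Treg replicate 1 and 0.0542 without CD4 replicate 2. A region of Il2rb, the beta chain, was higher in male VAT Tregs, with 5.64 and 2.67 CPM against 1.93 and 1.15 CPM in CD4 cells (adjusted p = 0.0244), and not called without the same 2 libraries (0.558 and 0.298).

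Other Treg-associated genes had 20 of 90 regions (22.2%) higher and 3 lower, with a median of 0.38, and without male VAT Treg replicate 1 there were 6 higher and 1 lower. Without CD4 replicate 1 they had 9 higher and 1 lower, without CD4 replicate 2 13 and 0, and without male VAT Treg replicate 2 23 and 0. Swap70, a gene of actin organization, changed most, with 3.74 and 1.92 CPM in male VAT Tregs and 0 and 0.144 CPM in CD4 cells on chromosome 7 from 110245573 to 110245750 (adjusted p = 0.000146, or 0.0519 without male VAT Treg replicate 1). Spleen Tregs did not share this Swap70 signal: they held 0.121 and 0.119 CPM, between the CD4 libraries, and female VAT Tregs 0.898 and 2.46 CPM. Male VAT Tregs were higher than spleen Tregs there (4.45 ± 0.82, adjusted p = 1.01e-05, edgeR). Female VAT Tregs were higher than CD4 cells (4.14 ± 1.12, adjusted p = 0.0125, edgeR). Neither was refitted with a library left out. Ctla4, an inhibitory receptor, had 2.66 and 2.35 CPM in male VAT Tregs and 0.578 and 0.144 CPM in CD4 cells on chromosome 1 from 60904608 to 60904761 (2.86 ± 0.81, adjusted p = 0.00986). It was not called without male VAT Treg replicate 1 (0.123) or CD4 replicate 2 (0.263). Lag3, another inhibitory receptor, was lower at a region on chromosome 6 from 124900565 to 124900642 (-2.80 ± 0.84, adjusted p = 0.0179), a call lost when any of the 4 libraries compared was left out (0.0649 to 0.477), or female replicate 2 (0.0524).

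The Ikaros relatives Ikzf1, Ikzf3 and Ikzf5 had 1 of 17 regions (5.88%) higher, near the share over all regions, and 2 lower. These were 0 and 2 without male VAT Treg replicate 1 or CD4 replicate 1, 2 and 2 without male VAT Treg replicate 2, and 1 and 0 without CD4 replicate 2. Genes of conventional CD4 T cells had 3 of 30 regions higher and 5 lower, and without male VAT Treg replicate 1 there were 1 higher and 3 lower. Without CD4 replicate 1 they had 1 and 3, without CD4 replicate 2 1 and 1, and without male VAT Treg replicate 2 2 and 3. Of the 11 regions of adenosine pathway partners none was called between male VAT Tregs and CD4 cells (edgeR), and 1 was higher without male VAT Treg replicate 2 or CD4 replicate 2. Other comparisons did call them. Adora2a, an adenosine receptor gene, had a region on chromosome 10 from 75325318 to 75328087 with 33.2 and 20.2 CPM in male VAT Tregs, 23.5 and 22.1 CPM in female VAT Tregs, 9.94 and 11.4 CPM in male spleen Tregs, and 18.9 and 21.5 CPM in male VAT CD4 cells. It was higher in male VAT than in spleen Tregs (1.32 ± 0.21, adjusted p = 6.73e-08, edgeR), also without male VAT Treg replicate 1 (0.90, 0.00992). Spleen Tregs were lower than CD4 cells (-0.91 ± 0.22, 0.00302), a call lost without spleen replicate 1 (0.0862) or CD4 replicate 2 (0.0761). P2rx7, the gene of an ATP-gated channel, had a region on chromosome 5 from 122644506 to 122648011 that was called in 4 comparisons. Male VAT Tregs were lower there, by -0.93 ± 0.23 against spleen Tregs (adjusted p = 0.00300) and -0.94 ± 0.24 against female VAT Tregs (0.00601), and by -0.98 (0.0303) and -0.99 (0.0333) without male VAT Treg replicate 1. The first was not called without spleen replicate 2 (0.0930) and the second without female replicate 2 (0.318). Spleen and female VAT Tregs were higher there than CD4 cells (0.87 ± 0.25, adjusted p = 0.0222, and 0.88 ± 0.26, 0.0228), and neither was called without CD4 replicate 1 (0.557 and 0.558). The spleen call was also lost without spleen replicate 1 (0.0659) or 2 (0.209), and the female one without female replicate 2 (0.410).

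Regions with the pattern most like that of Foxp3 over the 8 libraries were found among 29728 autosomal regions. For the Foxp3 region with the highest CPM, before the gene, they were assigned to Dpp8 and Ptplad1 (Pearson r = 0.974), Lemd2 (0.966), Nek8 with its neighbours (0.964), Prss42 (0.963), and Maff and Tmem184b (0.962). For the region inside Foxp3, chosen after its values were seen, they were Btbd9 (0.981), Foxp1 (0.979), Dmrta1 (0.976), A630001O12Rik (0.975) and Tbc1d22a (0.975). At Btbd9, on chromosome 17 from 30529421 to 30531222, there were 9.44 and 7.04 CPM in male VAT Tregs, 8.58 and 10.4 CPM in female VAT Tregs, 7.27 and 8.60 CPM in male spleen Tregs, and 2.31 and 2.74 CPM in male VAT CD4 cells. The Foxp1 region, on chromosome 6 from 99048749 to 99052554, held 15.8 to 18.4 CPM in the 6 Treg libraries and 9.44 and 10.2 CPM in CD4 cells. Its direction is opposite to that of the short Foxp1 region given above. The r values describe these 8 libraries, whose groups and depths all regions share.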

How the data were processed

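ATAC-seq of 8 mouse libraries was analysed from 1 table of raw counts per region and 8 files of log2 CPM. The authors deposited the counts without normalization, on mm10 (GRCm38) per the labels. Subread 1.6.2, HOMER 4.9, limma and featureCounts appear, without roles, in the submitters' processing notes, and how regions were called is not given in the sources used here. The deposited log2 values equal log2 CPM computed from the counts plus a constant per library, tested on the files, and served 1 alternative.

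The 62205 entries were reduced to 46624 distinct regions. Mitochondrial and unplaced regions and 111 regions without a gene were left out, 24.7 to 35.8% of a library's counts. edgeR's (4.0.16, R 4.3.3) filterByExpr kept 45709. All libraries entered 1 quasi-likelihood fit with a coefficient per group, TMM factors and Benjamini-Hochberg adjustment over all regions. Standard errors are the log2 fold change over the square root of F. Replicates differed beyond sampling noise in each group. Reads carry no molecular identifiers, so intervals cover counting error only. The fit was tested on simulated data. Alternatives used DESeq2 1.42.0, limma 3.58.1, other scalings, a replicate block and left-out libraries. Region-to-gene assignment is the table's, and whether starts count from 0 or 1 is not stated; gene bodies and promoters are RefSeq's (GRCm38.p6). All regions of the 9 genes could be named, related genes by up to 3 called per list with the largest changes, of which only some are given. Leaving libraries out of the related lists, the width classes and the sums per gene was added after seeing the data. Motifs of NF-kB and of the serum response factor were searched as well, matched no member window and were then dropped. Members and lists were chosen with earlier results of these data known.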

Additional observations from a re-analysis of the deposited data

How the results depend on the processing

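The 73 member regions gave 18 calls for male VAT Tregs against CD4 cells. There were 8 with DESeq2, 10 with limma-voom, 1 gene of 9 with counts summed per gene, and 7 to 20 when a library was left out. Male VAT against spleen Tregs had 9 calls, against 3 with DESeq2, 0 with counts summed per gene, 3 with limma on the deposited log2 CPM, and 2 to 14 with a library left out. Female VAT Tregs against CD4 cells had 10 calls, against 2 with counts summed per gene and 5 to 11 with a library left out. Male against female VAT Tregs had 6, against 2 with DESeq2, 1 with counts summed per gene, 3 with limma on the deposited values, and 1 to 7 with a library left out. Spleen Tregs against CD4 cells had 6, against 3 with DESeq2, 0 with counts summed per gene, 3 with limma-voom, and 3 to 6 with a library left out. The sums test 9 genes in place of 73 regions, and for the other settings the cause was not tested. Shares of all regions called fell in the following settings too. Between tissues, 4.64% higher and 2.09% lower became 2.44% and 0.545% with DESeq2 and 3.15% and 1.30% with limma on the deposited values. Between sexes, 2.04% and 1.21% became 0.774% and 0.333% with DESeq2 and 0.984% and 0.762% with the deposited values. For spleen Tregs against CD4 cells, 1.89% and 2.07% became 0.624% and 1.12% with DESeq2 and 0.766% and 1.84% with limma-voom. The ranges with a library left out stand without such a share here. Direction turned for 4 regions, none of them called under the setting. Entpd1 40639947 against CD4 cells ranged from -0.050, without male VAT Treg replicate 1, to 1.90 with a library left out. Between the sexes, with a library left out, Foxp3 7565611 ranged from -0.29 to 0.73, Foxp3 7566345 from -0.64 to 0.33 and Foxp3 7567611 from -0.34 to 0.66, and with X scaling Foxp3 7566345 was at 0.54. Lrrc32 summed per gene, between tissues, ranged from -0.082, without male VAT Treg replicate 1, to 0.11 with a library left out, and was not called. Of the other values of single member regions, 772 kept their direction and side of the threshold and 163 lost the call.

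No pairing by replicate number was seen: deviations of same-numbered libraries correlated at -0.15 to 0.07 over regions. With a single difference per group, this cannot tell whether same-numbered libraries shared mice. With the replicate block there were 17 calls for male VAT Tregs, 10 for female VAT Tregs and 6 for spleen Tregs against CD4 cells, 6 between tissues and 4 between sexes. Of the 18 calls, 15 were at short regions, where 1 count in a CD4 library, worth 0.144 to 0.193 CPM, weighs on the fold. With 2 libraries per group, 5 of the 18 calls against CD4 cells, 0 of 9 between tissues and 0 of 6 between sexes were kept whichever library was left out.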
